A study of Mus musculus with 37 samples.

Results

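The nuclear-encoded respiratory chain genes are the 106 rows, of 56351 genes in the count table, whose symbol begins with Nduf, Sdh, Uqcr, Atp5 or Cox4 to Cox8. Another 15 rows that matched but carry a pseudogene "-ps" name were left out. By name they comprise 42 complex I subunits with 8 complex I assembly factors, 4 complex II subunits with 4 assembly factors, 8 complex III subunits and 18 complex IV subunits. The remaining rows are the 2 Ndufa4 forms, Cox7a2l, 18 subunits of complex V and its inhibitor Atp5if1. The rule reads gene names only.

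RNA was obtained by RiboTag pull-down, in which an HA tag on the ribosomal protein Rpl22 lets ribosome-bound mRNA be precipitated from the cells that express Cre recombinase. All mice carried the genotype CD169 Cre KI/KI, Rpl22HA homozygous, so no group lacked either allele. CD169 is the sialic acid receptor Siglec1 of sinus and marginal zone macrophages. The labels call the captured cells CD169 macrophages, but also say that the cross turned the tagged allele on in all tissues, so the cells behind each library are not settled by the labels. The 36 pull-down libraries came in sets of 3 from the spleen and from 11 lymph node sites: mediastinal, iliac, deep cervical, super cervical and inguinal, the gut-draining duodenal, jejunal, ileal and ceco-colonic, and the celiac and liver nodes, and 1 more library was an isotype control precipitation from the jejunal node. The labels give no age or treatment, name lymph node as the tissue also for the spleen, and do not say whether same-site libraries came from different mice. The p-values therefore measure the spread between these libraries, which may be partly technical.

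Complex I (NADH dehydrogenase), complex II (succinate dehydrogenase), complex III (cytochrome bc1) and complex IV (cytochrome c oxidase) carry electrons from nutrients to oxygen and build a proton gradient across the inner mitochondrial membrane, which complex V (ATP synthase) uses to make ATP. Most subunits are encoded in the nucleus and a few in mitochondrial DNA. Several complex IV subunits have alternative forms: Cox6a2, Cox7a1 and Cox8b are the forms of heart, skeletal muscle and brown fat, while Cox6a1, Cox7a2 and Cox8a are made in most cells.

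Library totals fell into 2 ranges: 22 pull-down libraries held 1165387 to 69139450 counts, and 14 held 221911 to 917912. The deeper 22 covered Jejunal 2 and all 3 libraries of the spleen and of the mediastinal, deep cervical, super cervical, inguinal, ceco-colonic and ileal nodes. In the 14 shallower libraries, 39.0% to 85.6% of counts fell on 3 ribosomal features (Gm19220, Rn18s-rs5 and Lars2), and only 81 to 5600 counts per library fell on the respiratory chain genes. The same features took 42.7% of Spleen 3 and 25.3% of Spleen 1. Markers of sinus macrophages were detected in every deep site, with a summed level of 7643 to 8578 CPM (counts per 1000000, scaled by library size) in the ileal node, 914 to 1603 CPM in the deep cervical node and 202 to 3756 CPM in the spleen. Tests between sites used the 7 sites with 3 deep libraries. In them 100 of the 106 genes passed the filter on low counts. Cox8c, Ndufb11b, Cox6c2, Ndufa11b, Ndufs6b and a second Atp5po row did not.

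The respiratory chain genes took their largest share of the RNA in the deep cervical node and their smallest, among well-sequenced sites, in the spleen. Of the counts outside the ribosomal features they held 3.94%, 4.66% and 5.98% in the 3 deep cervical libraries. The mediastinal libraries held 3.01% to 3.47%, the ileal 3.11% to 3.25%, the ceco-colonic 2.50% to 2.64% and the super cervical 2.30% to 2.63%. The inguinal node ranged from 1.64% to 2.87%, and the spleen gave 0.903%, 1.58% and 0.517%. The deep cervical node stood above and the spleen below every other deep node library, whereas mediastinal and ileal values overlapped, as did ceco-colonic, super cervical and inguinal values. The 14 shallow libraries held 0.141% to 1.45% and spread widely within a site. The jejunal libraries held 1.39%, 2.36% and 0.215%, and the iliac libraries 0.257% to 1.45%, the highest being Iliac 2. The celiac (0.270% to 0.743%), duodenal (0.141% to 0.484%) and liver node libraries (0.203% to 0.376%) overlapped.

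**Figure D1:**
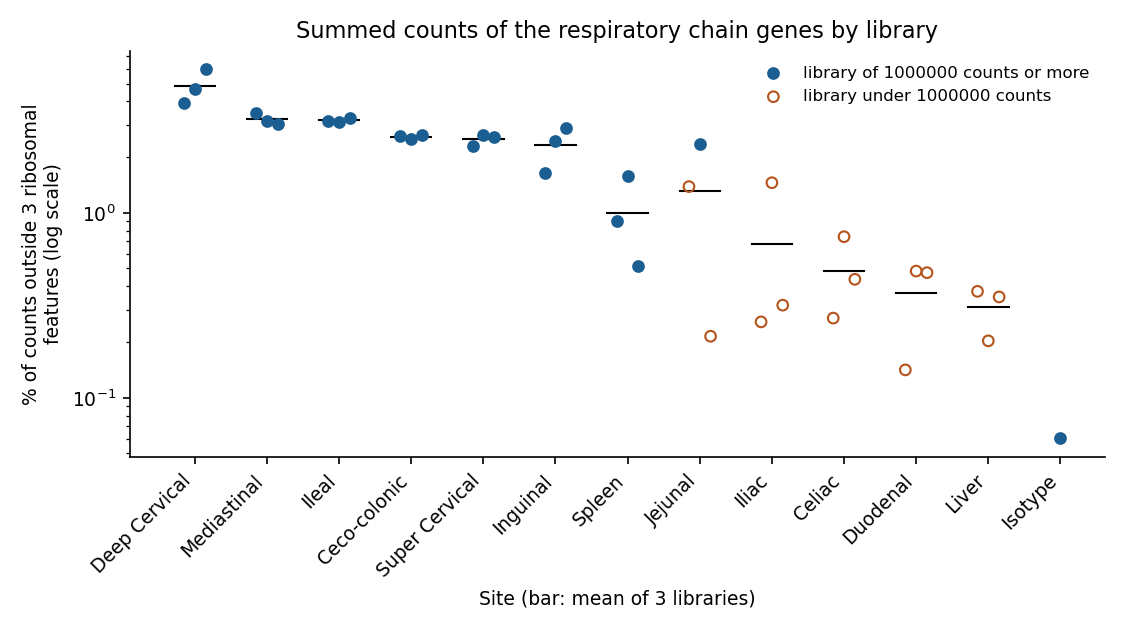
Share of counts outside 3 ribosomal features taken by the 106 respiratory chain genes (y axis, percent, log scale) in each of 37 libraries, grouped by site. Filled points are libraries of 1000000 counts or more and bars are means of 3. The deep cervical libraries (3.94% to 5.98%) lie highest, the spleen libraries (0.517% to 1.58%) lie below the deep node libraries, and the isotype library (0.0605%) lies lowest.

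Within the 7 deep sites, 81 of the 100 tested genes differed among sites (edgeR quasi-likelihood F test, adjusted p under 0.05), against 74.0% of the 19702 genes tested. That share is close to the background. The smallest adjusted p-values belonged to Cox7a1 (2.37e-14), Cox8b (1.32e-13) and Cox6a2 (2.41e-11), the muscle and fat forms. Other small values were those of Atp5f1b, the catalytic beta subunit of ATP synthase (4.11e-08), the complex I subunit Ndufb9 (5.54e-08), and the succinate dehydrogenase subunits Sdhd (1.03e-07) and Sdhb (1.50e-07).

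The most abundant gene of each complex showed how differently members behaved. Atp5mg, a small membrane subunit of ATP synthase, reached 1739.7, 1371.8 and 2583.7 CPM in the ileal node and 3267, 4787 and 771 CPM in the spleen. In the deep cervical node it gave 2107.9, 1470.1 and 1230.9 CPM, and in the mediastinal node 910.7, 766.8 and 701.5 CPM. Its spleen values thus overlapped those of all 3 of these nodes. Cox5a, a general complex IV subunit, behaved otherwise: 1667, 1485 and 1649 CPM in the ileal node, 1582, 1420 and 1482 CPM in the deep cervical node, and 168, 437 and 80.3 CPM in the spleen. All spleen libraries were below all deep node libraries for Cox5a. Uqcrh, the hinge protein of complex III, averaged 1212 ± 45.7 CPM (SD, n = 3) in the deep cervical node and 360 ± 305 CPM in the spleen. Sdha, the flavoprotein of succinate dehydrogenase, averaged 271 ± 116 CPM in the deep cervical node, 207 ± 5.19 CPM in the mediastinal node, 103 ± 17.7 CPM in the ileal node and 10.8 ± 4.25 CPM in the spleen. Ndufa5, a complex I accessory subunit, averaged 1485 ± 701 CPM in the deep cervical node, 362 ± 92.0 CPM in the mediastinal node and 1124 ± 887 CPM in the spleen.

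In the deep cervical node 72 of the 100 genes rose against the mean of the 6 other sites and none fell, with 44.4% of all tested genes called in either direction, 27.2% higher and 17.2% lower. The median log2 fold change was 1.37 over the respiratory chain genes and 0.08 over all genes. The 6 other sites include the spleen, so these rises are read against a mean that contains its low values. With DESeq2's size factors in place of edgeR's, the all-gene median moved to 0.26 and the median of the respiratory chain genes to 1.57. Then 85 were called, a count given without its share of all genes. For 21 of the genes, among them Cox6a2, Cox4i1, Cox6b1, Cox5b, Uqcrh and Ndufs1, all 3 deep cervical libraries lay above every other deep library, which held for 7.25% of all genes. By complex, 28 of 39 complex I subunits, 4 of 4 complex II subunits, 8 of 8 complex III subunits, 13 of 16 complex IV subunits and 12 of 17 complex V subunits rose. Of the assembly factors, 4 of 8 for complex I and 0 of 4 for complex II rose. Markers of other cells also shifted in this node. All 4 B cell markers were lower, summing to 132 to 209 CPM against 260 to 1289 CPM in the other deep libraries, as were all 3 T cell markers and 2 of 7 sinus macrophage markers. All 5 red cell markers were higher, summing to 4900 to 6445 CPM. Their part in the result was not tested.

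The largest changes were those of the tissue-restricted forms. Cox7a1 measured 123, 107 and 297 CPM in the deep cervical libraries and 0 to 2.89 CPM in all libraries of the ileal, ceco-colonic, inguinal and super cervical nodes and the spleen. Its log2 fold change was 6.44 ± 0.30 (SE; adjusted p = 2.93e-16, edgeR). Cox8b measured 357, 490 and 980 CPM, with a log2 fold change of 6.21 ± 0.31 (adjusted p = 1.28e-15, edgeR). Cox6a2 measured 55.6, 66.1 and 39.7 CPM, against 0 to 5.59 CPM in the other deep libraries, with a log2 fold change of 5.01 ± 0.30 (adjusted p = 6.75e-14, edgeR). For these forms the deep cervical values did not overlap those of the ileal, ceco-colonic, inguinal and super cervical nodes or the spleen. General subunits rose less. Atp5f1b measured 120, 215 and 947 CPM in the deep cervical node and 13.6, 18.5 and 9.90 CPM in the spleen. Its log2 fold change was 2.97 ± 0.34 (adjusted p = 5.64e-08, edgeR). Ndufb4c, a near copy of the complex I gene Ndufb4 whose reads cannot be cleanly told apart from its relatives, rose by 3.23 ± 0.48 on the log2 scale (adjusted p = 4.62e-06, edgeR).

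The 28 genes that were not called in the deep cervical node included some of the most abundant ones: Ndufa3 had a log2 fold change of -0.37 ± 0.40, Atp5mg of -0.31 ± 0.39, Atp5mc3 (a gene for the membrane ring subunit c of ATP synthase) of -0.03 ± 0.36 and Ndufa5 of 0.71 ± 0.38.

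In the mediastinal node 52 genes rose and 7 fell, with 54.0% of all genes called in either direction, 32.0% higher and 22.0% lower. For none of the genes did all 3 mediastinal libraries lie above every other deep library, which held for 8.25% of all genes. The median log2 fold change was 0.83 over the respiratory chain genes and 0.16 over all genes. As the 6 other sites include the spleen, the mediastinal rises are also read against a mean that contains its low values. Again Cox7a1 and Cox8b changed most. Cox7a1 measured 123, 72.9 and 89.8 CPM, with a log2 fold change of 5.41 ± 0.30 (adjusted p = 2.40e-13, edgeR). Cox8b measured 359, 262 and 240 CPM, with a log2 fold change of 4.94 ± 0.31 (adjusted p = 5.22e-12, edgeR). Mediastinal and deep cervical values overlapped for both genes. Cox6a2, by contrast, measured 2.65, 4.32 and 3.05 CPM, within the range of the inguinal and super cervical nodes, and its log2 fold change of 0.34 ± 0.37 was not called (adjusted p = 0.45, edgeR). Among general subunits, Ndufb4c (3.39 ± 0.46), Atp5f1b (2.92 ± 0.34) and Atp5pf, the coupling factor 6 subunit of ATP synthase (2.85 ± 0.36), rose most on the log2 scale. The limit on telling Ndufb4c reads from those of its relatives holds here too, and Ndufb4 was not called (-0.49 ± 0.32). All 4 complex II subunits rose, as did 5 of 8 of complex III, 8 of 16 of complex IV, 9 of 17 of complex V and 16 of 39 of complex I.

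The 7 genes that fell in the mediastinal node were the complex I subunits Ndufa5 (log2 fold change -1.66 ± 0.46), Ndufa3 (-1.55 ± 0.44), Ndufb3 (-1.06 ± 0.40) and Ndufb10 (-0.89 ± 0.36) and the complex V subunits Atp5mg (-1.49 ± 0.43), Atp5mc3 (-1.31 ± 0.40) and Atp5me (-1.01 ± 0.39). Ndufb10 and Atp5me were named because all 7 are listed here, after their values were seen. Without Spleen 3 the count that fell was 11, and without Mediastinal 1, 2 or 3 it was 4, 4 and 3. These falls too are read against a mean that contains the spleen, where none of the 7 was called. Main transcripts were under 0.8 kb for 6 of the 7 and for 48 of the 100 tested genes, 8 of the 100 having no length.

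The mediastinal libraries were the deepest, at 41240156 to 69139450 counts, and the next deepest site, the ileal node, held 18811172 to 31849079. With the log2 library total as a covariate, a fit added after the data were seen, 2 genes, Cox7a1 and Cox8b, were still called in the mediastinal node, and 30 of 19702 genes in all. Site and depth cannot be told apart for that node. The same covariate left 80 genes called in the deep cervical node and 74 in the spleen. Without the share of all genes beside them, these counts do not separate site from depth.

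In the spleen 80 genes fell and none rose, with 57.1% of all genes called in either direction, 25.7% higher and 31.4% lower. The median log2 fold change was -2.36 over the respiratory chain genes and -0.27 over all genes, the latter -0.09 with DESeq2's size factors in edgeR. For 51 of the genes all 3 spleen libraries lay below every other deep library, which held for 10.8% of all genes. Without Spleen 3, the shallowest of these libraries, 69 fell and 5 rose, without Spleen 1 68 fell, and without Spleen 2 86 fell. With DESeq2's size factors, and also without Ileal 3, 1 rose. All 4 complex II and all 8 complex III subunits fell, with 30 of 39 of complex I, 14 of 16 of complex IV and 12 of 17 of complex V.

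Sdhb, the iron-sulphur subunit of succinate dehydrogenase, measured 1.44, 3.20 and 2.20 CPM in the spleen, while the lowest deep node library was at 14.6 CPM. Its log2 fold change was -4.33 ± 0.56 (adjusted p = 4.3e-07, edgeR). Sdhd, a membrane anchor of the same complex, measured 2.15, 3.52 and 1.10 CPM and fell by 4.28 ± 0.55 on the log2 scale. For both genes the spleen libraries did not overlap the deep node libraries. Among the members with the largest falls were Cox8b (-5.10 ± 0.71), Atp5pf (-4.69 ± 0.77), Cox4i2, the lung and hypoxia-induced form of complex IV subunit 4 (-4.55 ± 0.64), and Cox7b, a general complex IV subunit (-4.55 ± 0.69). Ndufb4c had 0 counts in the spleen, against a mean of 31.7 CPM over the other deep sites. Set against a floor of 3 counts over the spleen's 3 libraries, it was at least 90.4-fold lower. As its reads cannot be cleanly told apart from those of its relatives, this bound depends on how they were assigned. Ndufb4 changed by -1.64 ± 0.36 in the spleen.

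The 20 genes not called in the spleen again included abundant ones. Atp5mg had a log2 fold change of 0.72 ± 0.36, Ndufa5 of 0.25 ± 0.39, Atp5me of 0.17 ± 0.36, Atp5mc3 of 0.05 ± 0.36 and Ndufa3 of -0.21 ± 0.39. In bulk samples like these, fewer cells of a type and less RNA per cell cannot be told apart. Markers of red cells summed to 10653, 72191 and 13247 CPM in the spleen libraries. They summed to 4900 to 6445 CPM in the deep cervical and 1275 to 1345 CPM in the mediastinal libraries. In the ileal, ceco-colonic, inguinal and super cervical libraries the sum was 142 to 371 CPM. The part of red cells in the result was not tested.

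**Figure D2:**
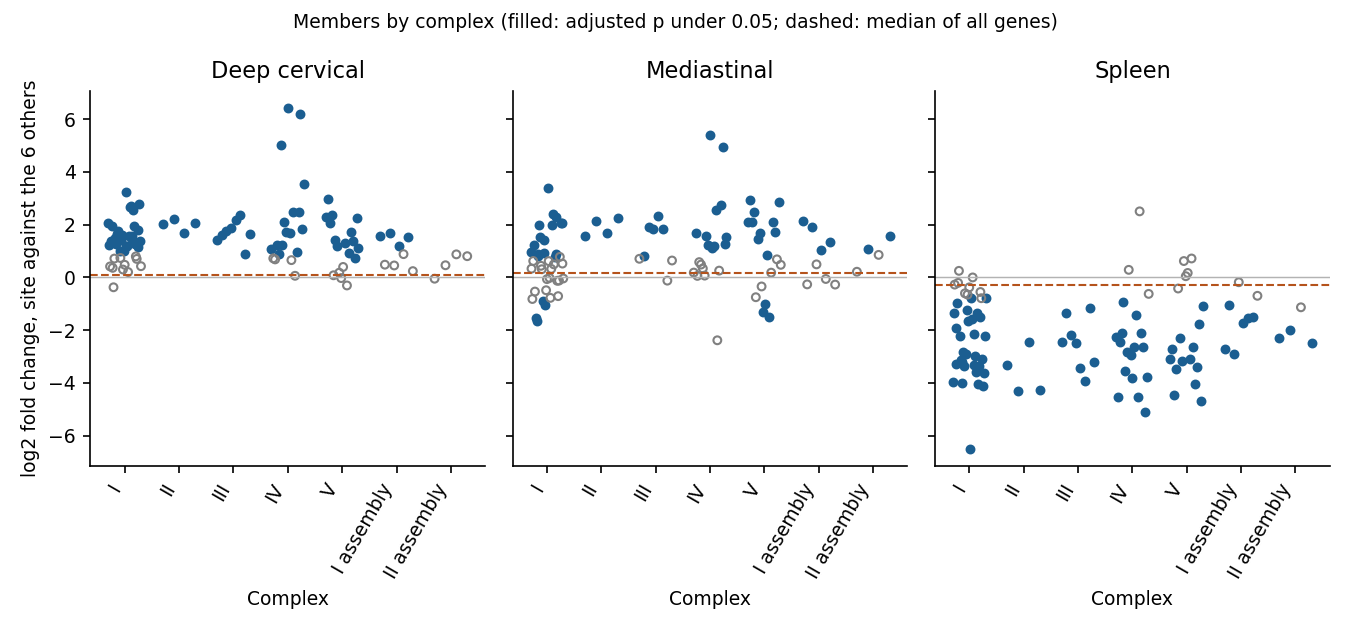
Log2 fold change of each tested gene (points) in the deep cervical node, mediastinal node and spleen, each against the mean of the 6 other sites, by complex. The Ndufa4 forms and Cox7a2l are drawn with complex IV and Atp5if1 with complex V. Filled points have an adjusted p under 0.05, dashed lines are medians of all genes, and Ndufb4c in the spleen is drawn at its bound. In the deep cervical panel 72 points are called, all above 0, and in the spleen panel 80, all below 0.

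Few genes changed in the remaining sites. In the ileal node 4 genes were called, 2 higher and 2 lower, against 3.93% of all genes (3.28% higher, 0.645% lower). Cox4i2 measured 23.3, 22.6 and 32.7 CPM there and rose by 1.61 ± 0.32 on the log2 scale (adjusted p = 0.00223, edgeR). Atp5mj, a small ATP synthase subunit, measured 625, 608 and 635 CPM, above every other deep library, and rose by 1.21 ± 0.34 (adjusted p = 0.0407, edgeR). Cox7a1 fell by 1.78 ± 0.44 and Cox6a2 fell by 1.59 ± 0.44. Cox4i2 was thus higher in ileal libraries than in all ceco-colonic, super cervical and spleen libraries, and overlapped the mediastinal, inguinal and deep cervical ones. Its rise was not particular to the ileal node, as it was also called higher in the mediastinal node (1.69 ± 0.32, adjusted p = 1.00e-04, edgeR). In the ceco-colonic node 2 genes were called, against 0.761% of all genes (0.685% higher, 0.0761% lower). Sdhaf1, an assembly factor for the iron-sulphur subunit of complex II, measured 98.3, 126 and 111 CPM (log2 fold change 1.15 ± 0.28, adjusted p = 0.0473, edgeR), and Cox7a1 fell by 2.52 ± 0.61. In the super cervical node 2 genes fell, against 2.95% of all genes (2.51% higher, 0.442% lower): Cox8b by 4.26 ± 0.60, at 1.04, 0.883 and 1.43 CPM, and Cox7a1 by 2.70 ± 0.58. In the inguinal node no gene was called by edgeR, against 5.72% of all genes (5.21% higher, 0.513% lower), while 9 had an unadjusted p under 0.05. DESeq2 called 1 there and limma-voom 0. Because each site is compared with the mean of the others, the falls of Cox7a1, Cox8b and Cox6a2 in these sites are read against a mean that contains the high deep cervical and mediastinal values.

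These small counts moved with single libraries. Without Spleen 2 the ileal count rose to 18 genes, the ceco-colonic to 6, the super cervical to 4 and the inguinal to 2. The ceco-colonic count was 0 without any one of its own libraries. Without Ileal 3 the ileal count was 0, without Deep Cervical 3 it was 8, and without Ileal 1 or Ileal 2 it was 1. It was 2 without Ceco-colonic 1, Ceco-colonic 2, Deep Cervical 2 or Mediastinal 2.

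The title of the series concerns the identity of small intestinal lymph nodes, which sets small intestinal against non-digestive nodes. In the deep libraries this comparison could be made for the ileal node against 4 non-digestive nodes (mediastinal, deep cervical, super cervical, inguinal). In it 3 of the 100 genes fell and none rose, against 2.89% of all genes called (1.61% higher, 1.28% lower). They were again the tissue-restricted forms: Cox7a1 (-3.27 ± 0.45, adjusted p = 2.99e-05), Cox6a2 (-2.73 ± 0.45, adjusted p = 2.65e-04) and Cox8b (-2.30 ± 0.46, adjusted p = 0.00256, all edgeR). Cox7a1 was at 1.18, 1.64 and 1.12 CPM in the ileal node, overlapping the inguinal node (1.36, 2.89 and 2.05 CPM) and above the super cervical node (0, 0.589 and 0.984 CPM). The high values in the group of 4 were those of the deep cervical and mediastinal libraries. The median over the respiratory chain genes was -0.11, against -0.00462 over all genes. With the log2 library total as covariate 12 genes fell, a count given without its share of all genes.

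With all 36 libraries, the duodenal, jejunal and ileal nodes were compared with those 4 non-digestive nodes plus the iliac node. In this comparison 77 of 94 genes were lower and none higher, against 27.0% of all 16294 genes called, 5.28% higher and 21.7% lower. The median was -1.53, against -0.91 over all genes, and -1.48 over the 79 genes with a count in every one of these sites. The 5 largest fitted falls were of Atp5f1e (-5.17 ± 0.99), Uqcrc1 (-4.91 ± 0.94), Ndufa13 (-4.70 ± 0.84), Atp5mc1 (-4.65 ± 0.85) and Ndufs8 (-4.58 ± 0.92). All 5 had no count in the duodenal libraries, so these values depend on the small count the fit adds and are no bounds. Atp5f1e, the epsilon subunit of ATP synthase, measured 0 CPM in each duodenal library, 463, 950 and 6.26 CPM in the jejunal and 453, 388 and 568 CPM in the ileal libraries. With the log2 library total as covariate 3 genes were called, of 73 in all. Depth and site cannot be told apart in this comparison.

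Counts of 0 were frequent in shallow sites. In the liver node 27 of the 106 genes had no count in any library, 11 of them at over 10 CPM on average elsewhere, for example Ndufb9, Cox7a2l and Ndufa12. In the duodenal node it was 24, of which 9 were over 10 CPM elsewhere, led by Atp5f1e, Ndufa13 and Ndufb5. In the celiac and iliac nodes it was 15 each, and in the jejunal node 11. With site totals of 956406 counts in the duodenal and 1135750 in the liver node, a level under about 3 counts in those totals was not detectable.

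Set against their general partners, per kilobase of the main transcript, Cox7a1 had its highest shares in the deep cervical and mediastinal nodes. Cox7a1 made up 53.7% to 65.5% of Cox7a1 plus Cox7a2 in the deep cervical and 47.7% to 62.4% in the mediastinal libraries. In the ileal, ceco-colonic, inguinal and super cervical libraries that share was 0% to 6.69%. Cox8b made up 89.3% to 97.2% of Cox8b plus Cox8a in the deep cervical, 76.4% to 89.2% in the mediastinal and 71.6% to 87.9% in the inguinal libraries. It made up 29.7% to 46.4% in the ileal, 35.6% to 60.4% in the ceco-colonic and 8.39% to 27.6% in the super cervical libraries. The inguinal share for Cox8b is high although its level is low (12.9, 37.9 and 23.0 CPM), and Cox8a was low there too (4.75, 7.95 and 13.96 CPM). Cox6a2 made up 4.28% to 10.6% of Cox6a2 plus Cox6a1 in the deep cervical libraries and at most 1.47% in those of the other 6 deep sites. In the spleen the shares rest on 139 counts for the Cox7a pair and 44 for the Cox8 pair and spread from 0% to 21.8% and from 4.42% to 82.1%.

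The general partners were on average lowest in the spleen. Cox7a2 averaged 181 ± 88.6 CPM in the deep cervical, 129 ± 4.73 CPM in the mediastinal, 83.9 ± 11.2 CPM in the ileal node and 13.4 ± 4.21 CPM in the spleen. Cox8a averaged 82.4 ± 86.5 CPM in the deep cervical, 96.9 ± 26.2 CPM in the mediastinal, 24.7 ± 9.08 CPM in the ileal node and 3.32 ± 2.10 CPM in the spleen. Deep cervical and mediastinal libraries overlapped for both genes.

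The remaining restricted forms were low. Cox4i2 made up 2.12% to 2.76% of the Cox4 pair in the ileal, 2.56% to 3.89% in the mediastinal and 2.23% to 2.60% in the inguinal node, and 0% to 2.48% in the ceco-colonic, deep cervical, super cervical and spleen libraries. Ndufa4l2, a hypoxia-induced relative of Ndufa4, averaged 5.96 ± 3.74 CPM in the deep cervical node and on average under 2 CPM at each other deep site, against 888 ± 354 CPM for Ndufa4 in the deep cervical node. Cox6b2, the testis form of Cox6b1, did not exceed 2.59 CPM in a deep library and Cox7b2 did not exceed 3.11 CPM. The germ cell markers Tnp1 and Prm1 summed to at most 0.16 CPM.

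**Figure D3:**
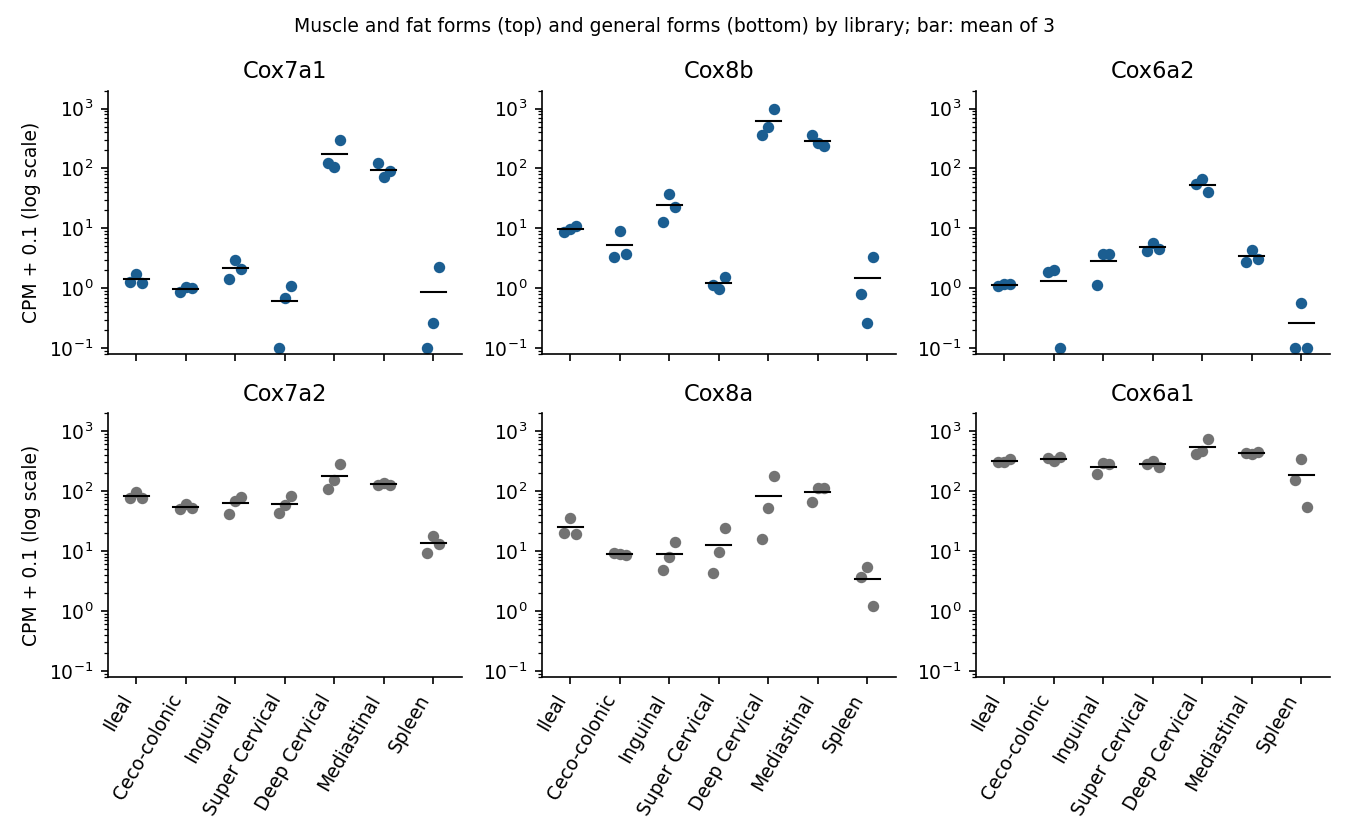
CPM plus 0.1 (y axis, log scale) of 3 muscle and fat forms (top) and their general partners (bottom) in each library of the 7 deep sites; bars are means of 3. Cox7a1 and Cox8b are high in the deep cervical and mediastinal nodes, Cox6a2 in the deep cervical node (39.7 to 66.1 CPM).

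For the promoters, RefSeq windows from 250 bases before to 50 bases after the gene start (GRCm38.p6) matched 81 of the 106 members. These are a description of the sequence and not evidence of binding. NRF1 and the ETS factor GABPA are regulators known from respiratory chain promoters, MEF2 and E-box-binding factors from muscle promoters, and YY1 from both general and mitochondrial genes. The NRF1 motif (GCGCA and GCGC with any base between them), searched like the others on both strands, was in 25.9% of member windows and 5.19% of all 27025 gene windows. The ETS motif CCGGAAG was in 25.9% and 9.93%, and the YY1 motif AAGATGG in 14.8% and 7.28%. A loose pattern for the MEF2 motif (CTA and TAG with any 4 bases between them) was in 2.47% and 4.23%, and the E-box CAGCTG in 7.41% and 18.3%. Matches of different motifs may overlap, and each is counted.

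The 250 bases before the start are printed for Cox7a1 and Cox8b, the forms highest in the deep cervical and mediastinal nodes, and for Cox6a1, a general form present at every deep site (capitals mark matches to the 5 motifs).
Cox7a1 (chr7:30183921-30184170, plus strand): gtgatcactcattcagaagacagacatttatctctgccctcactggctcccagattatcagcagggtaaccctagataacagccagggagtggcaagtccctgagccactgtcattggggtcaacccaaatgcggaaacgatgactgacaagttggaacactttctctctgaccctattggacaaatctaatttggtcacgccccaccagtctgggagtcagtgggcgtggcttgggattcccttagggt
Cox8b (chr7:140900447-140900696, minus strand): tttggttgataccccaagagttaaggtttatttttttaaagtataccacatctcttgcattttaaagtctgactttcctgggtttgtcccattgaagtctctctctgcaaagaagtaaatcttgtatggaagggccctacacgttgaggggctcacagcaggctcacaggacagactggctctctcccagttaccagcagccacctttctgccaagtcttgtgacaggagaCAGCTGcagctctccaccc
Cox6a1 (chr5:115348959-115349208, minus strand): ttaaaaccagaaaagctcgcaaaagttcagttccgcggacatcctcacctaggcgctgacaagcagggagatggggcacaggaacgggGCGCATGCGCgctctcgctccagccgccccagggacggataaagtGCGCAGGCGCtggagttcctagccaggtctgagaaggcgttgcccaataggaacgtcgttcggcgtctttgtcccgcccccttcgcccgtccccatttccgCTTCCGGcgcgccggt
The Cox7a1 stretch holds none of the 5 motifs. The Cox8b stretch holds 1 E-box, and a second lies within the 50 bases after the start. The Cox6a1 stretch holds 2 NRF1 matches and 1 ETS match. Cox6a1 is the general partner of neither Cox7a1 nor Cox8b. Cox7a2, the general partner of Cox7a1, holds none of the 5 motifs in its window of 300 bases. Cox8a, the general partner of Cox8b, has 2 ETS matches in its window of 300 bases, and Cox8b none. Neither ETS match of Cox8a lies wholly in the 250 bases before the start, which hold none of the 5 motifs.

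Markers of fat and muscle moved with these forms in some sites and not in others. Ucp1, the uncoupling protein of brown fat, measured 116, 169 and 631 CPM in the deep cervical libraries, 213, 175 and 188 CPM in the mediastinal and 0 to 6.11 CPM in the other deep libraries. The 4 brown fat markers together gave 286, 369 and 1306 CPM in the deep cervical, 452, 327 and 369 CPM in the mediastinal, 9.2 to 38.7 CPM in the other deep node libraries and 53.9 to 73.1 CPM in the spleen, where most of the sum is Dio2. All 4 were called higher in the deep cervical node and 3 of 4 in the mediastinal node. The 10 skeletal muscle markers gave 6574, 3772 and 121 CPM in the deep cervical libraries, 13.3, 8.3 and 21.0 CPM in the mediastinal and 3.1 to 59.4 CPM in all other deep libraries. All 10 were higher in the deep cervical node, and none in the mediastinal node, where 2 were lower. Across the 3 deep cervical libraries Cox7a1 and Cox8b were highest in Deep Cervical 3, the library with the most Ucp1 and the least muscle signal, while Cox6a2 was lowest there. White fat markers summed to 3855 to 9115 CPM in the deep cervical, 2649 to 3935 CPM in the mediastinal, 1405 to 3268 CPM in the ileal and ceco-colonic and 688 to 2446 CPM in the inguinal libraries. They were at 96.8 to 161 CPM in the super cervical node and 28.8 to 69.3 CPM in the spleen, the sites with the lowest Cox8b. In the ileal node, where Cox7a1 and Cox6a2 fell, the white fat markers Fabp4 (log2 fold change 1.74 ± 0.33) and Cidec (1.66 ± 0.40) were called higher. The other white fat markers were not called there. Thyroid markers summed to 1442 to 9620 CPM in the deep cervical libraries and to at most 36.3 CPM elsewhere. The part of these tissues in the respiratory chain results was not tested.

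Other genes of energy metabolism, taken from lists set out for comparison, are counted here beside the share of all genes: 27.2% were called higher in the deep cervical node, 32.0% higher in the mediastinal node and 31.4% lower in the spleen. Of 13 tricarboxylic acid cycle genes, 12 were higher in the deep cervical node, 9 in the mediastinal node, and 10 were lower in the spleen. Mdh2, mitochondrial malate dehydrogenase, had log2 fold changes of 2.54 ± 0.30, 2.31 ± 0.30 and -3.69 ± 0.51 in the deep cervical node, mediastinal node and spleen. Cs, citrate synthase and the most abundant gene of the list, was not called in any of these (0.52 ± 0.32, -0.10 ± 0.34 and -0.07 ± 0.34). Of 15 glycolysis genes, 13 were higher in the deep cervical node, 13 higher and 1 lower in the mediastinal node, and 12 lower in the spleen. The lower one in the mediastinal node was Hk2 (-1.12 ± 0.42). Of 41 other nuclear genes of the chain and its assembly, 21 were higher in the deep cervical node, 17 higher and 1 lower in the mediastinal node, and 24 lower in the spleen.

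Of the 13 subunits encoded in mitochondrial DNA, 3 were called higher in the deep cervical node, 1 in the mediastinal node and none in the spleen, which is no more than those shares of all genes. In the spleen their median log2 fold change was -0.27. mt-Co2 rose by 2.12 ± 0.34 in the deep cervical node, and its spleen value of 0.35 ± 0.38 was not called. Their summed level varied within sites, from 122 to 2130 CPM in the ceco-colonic and from 609 to 2395 CPM in the deep cervical node. Counts among 12 regulators of mitochondrial biogenesis were near or under the share of all genes in the deep cervical node, where Ppargc1a (1.94 in log2 fold change), Tfb2m (1.70) and Polrmt (1.41) rose and Tfb1m (-1.10) fell. In the spleen 7 fell and 2 rose, Tfb1m (1.57 ± 0.26) and Ppargc1b (0.84 ± 0.29). In the mediastinal node 6 rose and 2 fell.

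Transcript length went along with how members differed between libraries. Taking the main annotated transcript of each gene, 48 tested members were under 0.8 kb, 20 between 0.8 and 1.2 kb and 24 over 1.2 kb, and 8 had no length. Long members gave 3.23 to 32.4 counts per 100 counts of short members across the 22 deep libraries. Within a site the ratio was highest in the deepest library of the deep cervical (14.6, 19.4 and 30.4 at 2854863, 4847523 and 15808815 counts), super cervical, inguinal, ileal and mediastinal nodes. In the other 2 sites it was highest in the shallowest library: 6.50 in Spleen 3, against 3.23 and 3.82, and 9.59 in Ceco-colonic 2, against 8.92 and 8.17. For all other genes the ratio, in long counts per single short count, was 3.62 to 10.8. It was lowest in Super Cervical 3, where the members gave 15.8 long counts per 100 short counts. Against the other sites, the median log2 fold change in the mediastinal node was 0.33 for short and 1.62 for long members. In the deep cervical node it was 1.01 and 1.63, and in the spleen -2.17 and -2.77. The part of length and depth in the site differences was not tested further.

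**Figure D4:**
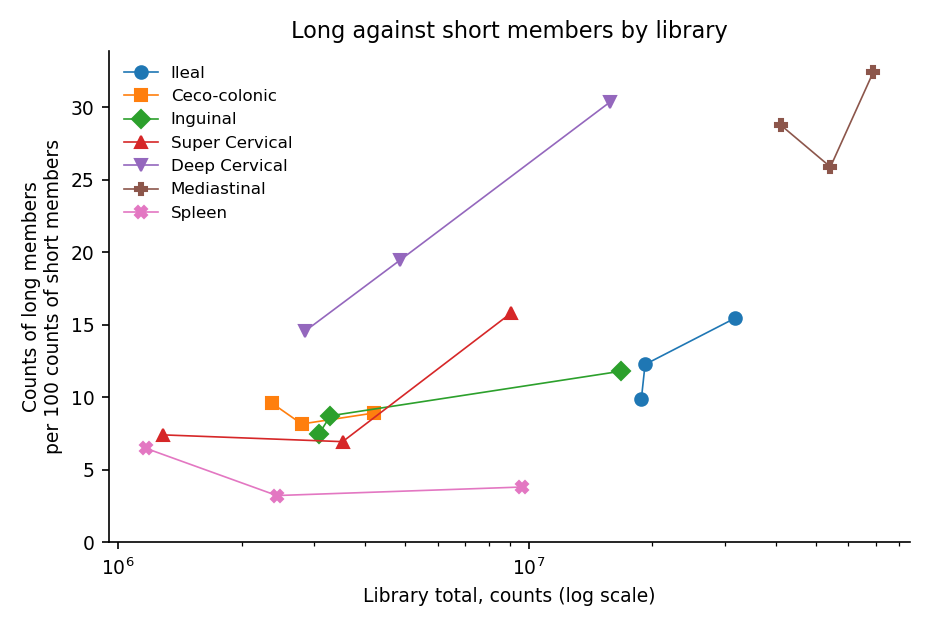
Counts of respiratory chain genes with transcripts over 1.2 kb per 100 counts of those under 0.8 kb (y axis) against library total (x axis, log scale) for the 21 libraries of the 7 deep sites, lines joining libraries of a site. The ratio runs from 3.23 in Spleen 1 to 32.4 in Mediastinal 3.

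In the jejunal node the pull-down held more of these genes than the isotype precipitation. The isotype library had 5002926 counts, of which 2829 fell on the respiratory chain genes (0.0605% of counts outside the ribosomal features). Among 87 members with at least 10 counts over the 4 libraries, the median log2 ratio of mean jejunal CPM to isotype CPM (0.5 added to each) was 2.57, against 0.09 over 12608 genes. More than 2-fold higher were 69 members (79.3%), against 31.6% of all genes. Atp5mg gave 1586, 3347 and 46.8 CPM in the jejunal libraries and 8.19 CPM in the isotype library (exact Poisson 95% interval 5.88 to 11.1, counting error only). Ndufa5 gave 656, 1672 and 7.80 CPM against 3.80 CPM (2.29 to 5.93), and Cox5a 212, 664 and 19.5 CPM against 31 counts in the isotype library (4.21 to 8.79 CPM). Jejunal 3, the shallowest of these at 256282 counts, lay far below Jejunal 1 and Jejunal 2 for all of them. Alone, the libraries gave median log2 ratios of 1.78, 3.56 and 0.27.

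By class the median log2 ratio was 3.53 for complex IV, 3.23 for complex I, 2.77 for complex III, 2.67 for complex V, 1.58 for complex II and 0.76 for complex I assembly factors. In the isotype library long members gave 45.5 counts per 100 of short members, against 5.27, 4.63 and 40.5 in the jejunal libraries. Ndufv3 was lower in the pull-down mean (22.2, 98.9 and 27.3 CPM against 66.4 CPM in the isotype), as were Ndufaf4, Atp5if1, Ndufaf5 and Ndufa10. These 5 were named because they were the only ones of the 87 below the isotype, after their values were seen. With 1 isotype library there is no test, and the difference has no replicate check on the control side.

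**Figure D5:**
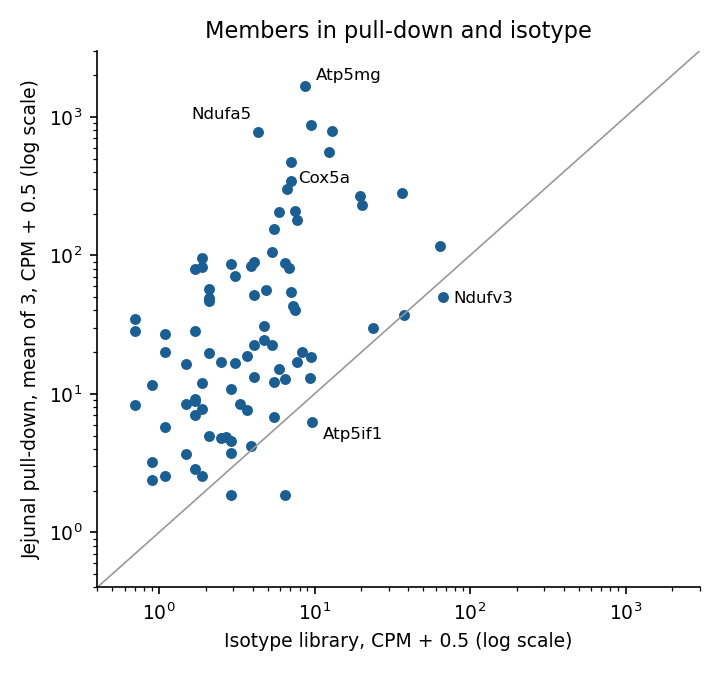
Mean jejunal pull-down CPM (y axis) against isotype CPM (x axis), 0.5 added to each and both on log scales, for the 87 members with at least 10 counts; the line marks equal values. There are 82 points above the line and 5 below.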

How the data were processed

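Expression was measured as estimated counts per gene in 37 libraries. Tools named, without version or role, per the submitters' processing notes are edgeR, limma and kallisto, and both GRCm39 and mm10 stand there, so no coordinates are attached to the counts. The deposited values are expected counts (32.8% of all values not whole), and they were rounded before testing. The 211 genes with an Ensembl ID but no symbol, 0.0159% to 0.114% of counts, were kept.

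Tests used edgeR 4.0.16 (TMM factors, quasi-likelihood, Benjamini-Hochberg over all genes, adjusted p under 0.05) in R 4.3.3, with genes passing filterByExpr (minimum count 10, minimum total 15). The deep fit held 22 libraries of at least 1000000 counts, with Jejunal 2 in no contrast. Each site was contrasted with the mean of the 6 other site coefficients, so contrasts share libraries. The SE of an edgeR log2 fold change was derived as its absolute value divided by the square root of the F statistic. CPM is per 1000000 of TMM-scaled library size, except in the isotype comparison, which used plain totals. Alternatives were DESeq2 1.42.0, limma-voom (limma 3.58.1), other scaling, no filter, the replicate block and each library left out.

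The members and lists were chosen with earlier results of these data known. Named genes were up to 5 called members per direction with the largest change and a mean of at least 10 CPM, the 8 smallest p-values of the F test, the most abundant of each complex and the tissue-restricted forms. A gene that this rule would also name is not reported here. Transcript lengths are from GENCODE M21 principal transcripts. Replicates of a site differed by more than sampling noise in all 36 pairs (chi-square per degree of freedom 10.8 to 198).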

Additional observations from a re-analysis of the deposited data

How the results depend on the processing

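No named gene's called change reversed under the alternatives run. The spleen, with 0 members higher, had 1 higher with DESeq2, and the mediastinal members that fell were 13 with DESeq2, against 7. Over all settings, 253 main values stayed the same and 46 moved, and 973 single-gene results kept their call while 81 lost it. A count of called members stayed the same when within 1.5 times the reported value. The isotype median did so when it differed by less than the SD of the single-library medians. The counts that moved are small ones or depend on depth. For the ceco-colonic node (2 members) DESeq2 gave 5 (1 higher, 4 lower), limma-voom 0, no filter on low counts 5, leaving out the ribosomal features 1 and the library total as covariate 1. For the ileal node (4) no filter gave 8, the replicate block 8 and the covariate 1. For the inguinal node (0) DESeq2 gave 1 and the covariate 1, and for the super cervical node (2) a higher depth minimum, which drops Super Cervical 1 and Spleen 3, gave 1. With the covariate the mediastinal count went from 59 to 2, the ileal node against 4 non-digestive nodes from 3 to 12, and the small intestinal nodes against 5 from 77 to 3, and the ileal node alone gave 3. The covariate, the higher minimum and the ileal restriction were chosen after seeing the data; the cause of these moves was not tested.

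Leaving out each library in turn gave 75 to 91 members differing among sites, 51 to 81 changed in the deep cervical node, 48 to 74 in the mediastinal node, 68 to 86 in the spleen, 0 to 18 in the ileal, 0 to 6 in the ceco-colonic, 1 to 4 in the super cervical and 0 to 2 in the inguinal node. It gave 3 to 4 for the ileal node against 4 non-digestive nodes, 57 to 83 for the small intestinal nodes and an isotype median of 1.70 to 2.89. The ceco-colonic count was 6 without Spleen 2, 4 without Deep Cervical 1, and 0 without any one of the ceco-colonic or mediastinal libraries, Ileal 1, Ileal 2, Inguinal 2, Inguinal 3 or Super Cervical 3. It was 1 without Inguinal 1, Super Cervical 1, Deep Cervical 2 or Ileal 3. The inguinal count was 1 without Ceco-colonic 1 or Deep Cervical 3, and the super cervical count 1 without Super Cervical 2.

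The labels number libraries alike across sites. They do not say what a number marks, and 16 of 63 same-number pairs correlated above 0.1, so the numbers were not taken as pairs. As a hint from the data only, 12 of 21 libraries lay closest to their own number. A replicate block gave 74 members in the deep cervical node, 64 in the mediastinal node and 81 in the spleen. Depth limits the shallow sites, where 39 to 88 of the 106 genes had a count, and the single isotype library.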
